A study of Mus musculus with 4 samples.

Results

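Late mature oligodendrocyte genes are expressed when an OL has passed the first wave of differentiation and maintains its myelin. The group comprised 9 genes chosen by symbol for what is known of them, namely Ermn, Anln, Gjb1, Hapln2, Ninj2, Klk6, Aspa, Car2 and Apod, out of 53465 genes listed in the count files. The structural proteins of myelin were kept out of it. All 9 genes had counts in every library and passed the filter on low counts.

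The counts come from RNA-Seq of primary (1°) mouse oligodendroglial cell (OGC) cultures from the forebrain of mice at P2 to P4, grown in differentiation medium for 3 days (3ddiff). There were 2 ctrl libraries from Zfp276 flox/flox mice and 2 Zfp276cko libraries from mice that carried Sox10::Cre tg on top of Zfp276 flox/flox, so that both genotypes share the floxed allele and only Zfp276cko mice carry the Cre transgene. Each library was 1 independent preparation pooled from 3 mice, and mice bred for these cultures also had a Cre-dependent tdTomato allele at Rosa26. Cre is driven by a Sox10 BAC transgene, which is expressed from OPCs onwards, and OGCs were shaken off mixed glia and depleted of microglia. The strain background combined C3H and C57Bl/6J, and the study included males and females. The ctrl libraries held 21311469 and 21068322 counts (replicates 1 and 2), and the Zfp276cko libraries held 25265366 and 26599809.

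An OL precursor cell (OPC) leaves the cell cycle, passes a premyelinating stage with high Gpr17, Enpp6 and Bcas1, and then produces myelin sheaths. Genes of the mature cell serve tasks around the finished sheath. They include the cytoskeleton beneath the inner membrane (Ermn, Anln), gap junctions (Gjb1), matrix at the node of Ranvier (Hapln2), adhesion and proteolysis at the surface (Ninj2, Klk6), and the metabolism and lipid transport of the cell (Aspa, Car2, Apod).

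The 4 libraries differed in more than genotype. Zfp276 itself was at 1648 and 2230 normalized counts in the ctrl pair (replicate 1 first, here and throughout) and at 490 and 503 in the Zfp276cko pair, where normalized counts are counts scaled with TMM factors to the mean effective library size. Zfp276cko cells thus kept 25.6% of the ctrl level, with adjusted p-values of 0.0962 from edgeR's quasi-likelihood test and 1.21e-14 from DESeq2. Its exons share 16.6% of their length with Fanca on the opposite strand. Sox10, present in OGCs of all stages, had 18135 and 20744 normalized counts in ctrl and 17805 and 18611 in Zfp276cko libraries. The ctrl replicates lay much farther apart than the Zfp276cko replicates. Over the 14324 tested genes with a mean of at least 20 normalized counts, the median absolute difference between replicates was 0.29 on the log2 scale in ctrl and 0.087 in Zfp276cko. The squared difference between replicates was on average 87.7 times its counting variance per gene in ctrl and 5.63 times in Zfp276cko, so that both pairs differed by more than sampling noise and each library was counted as 1 replicate.

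Ctrl replicate 1 stood apart in markers of other cells. The 13 markers of fibroblasts and vessels summed to 9940 normalized counts in ctrl replicate 1, 807 in ctrl replicate 2, and 644 and 551 in Zfp276cko replicates 1 and 2. Their most abundant gene, the collagen chain Col1a2, had 2703 normalized counts in ctrl replicate 1 and between 41.2 and 49.8 in the other 3 libraries. The endothelial gene Cldn5 was at 0 in all 4. The endothelial Pecam1 had 106 and 93.4 in ctrl and 153 and 161 in Zfp276cko. Kdr had 64.1 and 42.8 in ctrl and 76.9 and 49.0 in Zfp276cko. The median log2 fold change of the 11 tested markers was −2.84 with all libraries and 0.36 without ctrl replicate 1, and DESeq2 called the smooth muscle genes Acta2 and Tagln lower. The sum of the 10 neuronal markers was lowest in the same library. It was 3456 in ctrl replicate 1, 12233 in ctrl replicate 2, and 10597 and 11300 in Zfp276cko. Dcx was their most abundant gene, and Slc17a7 had fewer than 10 counts in every library. Nefl and Nefm were instead lowest in Zfp276cko replicate 1, with 24.4 and 57.9 normalized counts. The 15 microglial markers, led by Fcrls, summed to 80160 and 53743 in ctrl and to 60098 and 61425 in Zfp276cko. The 11 astrocytic markers, led by Gfap and with Gjb6 at 0, summed to 40456 and 31145 in ctrl and 37740 and 35833 in Zfp276cko. Gfap, Slc1a2 and Aldoc were highest in ctrl replicate 1, whereas Aqp4, Slc1a3, Aldh1l1, Gja1 and Sox9 were lowest there. Over the 10 tested astrocytic markers, the median log2 difference of ctrl replicate 1 minus ctrl replicate 2 was −0.27. The 20 genes of the interferon response, led by Ifit3, differed by genotype, with sums of 15943 and 6555 in ctrl against 111357 and 109322 in Zfp276cko, and DESeq2 called 18 of them higher. DESeq2 called Fcrls lower and Cd68 higher among the microglial markers, and no astrocytic or neuronal marker. The part of these cells and of the interferon response in the values of the late genes was not tested. In these bulk libraries, fewer cells of a type and less RNA per cell cannot be told apart.

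The test between genotypes was edgeR's quasi-likelihood test over 15766 genes. Calls required 3 things, namely a Benjamini-Hochberg adjusted p no higher than 0.05, a log2 fold change no smaller than 0.6 in either direction, and 20 or more normalized counts on average. No late gene was called at these thresholds, as was true of all genes in these libraries (0% lower and 0% higher, with a smallest adjusted p of 0.0725). When the p was left unadjusted and all thresholds were kept, 1 of the 9 genes was lower, against 3.02% of all tested genes, and 0 were higher, against 5.11%. DESeq2 called the same gene, Ermn, lower and none higher, against 2.21% lower and 2.92% higher of its 15289 genes. For 5 of the 9 genes the Zfp276cko pair lay below the ctrl pair without overlap, compared with 23.7% of tested genes, and for 1 both lay above, compared with 26.8%. The median log2 fold change of the 9 genes was −0.49, beside −0.0013 over all tested genes, and without ctrl replicate 1 it was −0.083. A pair of libraries against a pair cannot reach a two-sided p below 0.333 in an exact permutation test.

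**Figure D1:**
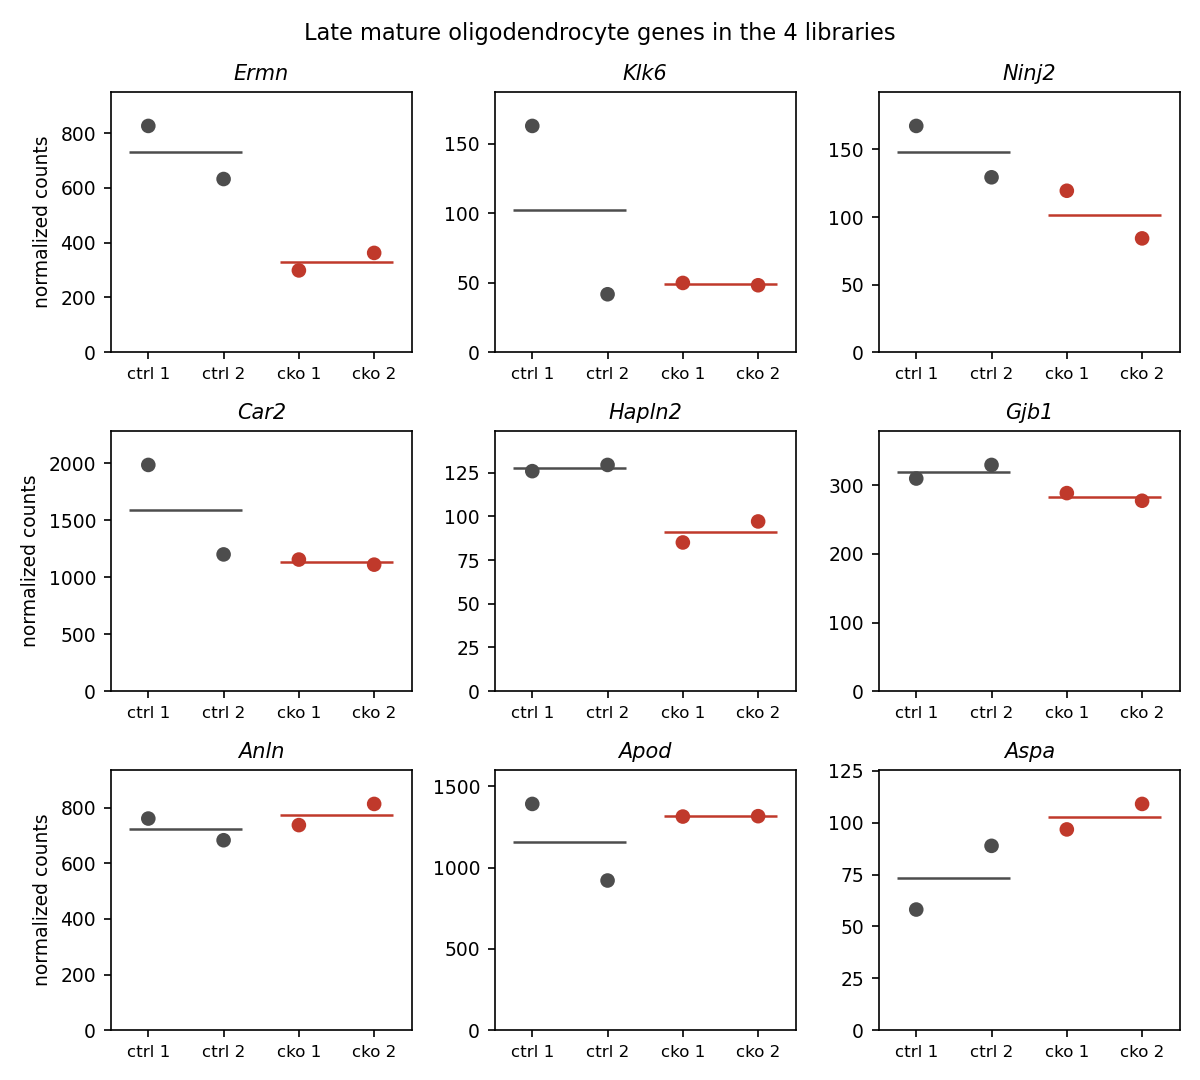
Normalized counts (y axis, each panel from 0) of the 9 late genes in the 2 ctrl libraries (grey) and the 2 Zfp276cko libraries (red); points are libraries and lines genotype means. The genotypes are separate for Ermn, Ninj2, Car2, Hapln2, Gjb1 and Aspa, narrowly so for Car2, and overlap for Klk6, Anln and Apod, with ctrl replicate 1 far above the other libraries for Klk6.

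Among the cytoskeletal genes, Ermn was lower in Zfp276cko than in ctrl cells, and it was the one late gene that DESeq2 called. It encodes ermin, an actin-binding protein of the OL that appears late, in regions of the sheath that retain cytoplasm. The gene is located on chromosome 2 of GRCm38 from 58045113 to 58052864 on the minus strand. Normalized counts of Ermn reached 826 and 632 in the ctrl pair but 299 and 363 in the Zfp276cko pair. Both Zfp276cko libraries were low and the genotypes did not overlap. The ctrl mean was 729 ± 137 and the Zfp276cko mean 331 ± 45.2 (each SD, n = 2), or 45.3% of ctrl. The distance between the means exceeded the gap between replicates in both genotypes. The log2 fold change came to −1.14 (standard error, SE, 0.21; adjusted p = 0.158, edgeR quasi-likelihood). In DESeq2 the estimate was −1.16 (adjusted p = 8.64e-04). Limma voom with a separate weight per genotype gave an adjusted p of 0.0785. Leaving out ctrl replicate 1 gave −0.93 and leaving out ctrl replicate 2 gave −1.33, and adjusted p-values were then 3.01e-06 and 4.49e-09 with the lone ctrl library assumed to vary like the Zfp276cko pair. Exons of Ermn share 237 bp, or 6.52% of their merged length, with Galnt5 on the opposite strand, which had 0 counts in 3 libraries and 1 count in Zfp276cko replicate 2.

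Anln differed little. It encodes anillin, which is known from cytokinesis in dividing cells and in mature OLs helps to assemble septin filaments along the inner layer of myelin. The gene lies on chromosome 9 from 22332012 to 22389188. Its values were 761 and 683 normalized counts in ctrl and 737 and 814 in Zfp276cko libraries, with the genotypes overlapping. The log2 fold change was 0.10 (SE 0.13; quasi-likelihood adjusted p = 0.745). It moved to 0.18 when ctrl replicate 1 or Zfp276cko replicate 1 was left out, to 0.014 when ctrl replicate 2 was, and to 0.033 when Zfp276cko replicate 2 was. Because Anln is also used by dividing cells, its values are best seen beside those of the 21 genes of the cell cycle, which summed to 21655 and 32279 in ctrl and 29821 and 30306 in Zfp276cko, with Mki67 the most abundant. Their median log2 fold change was 0.20, with the Zfp276cko pair below the ctrl pair for 0 genes and above it for 7, and DESeq2 called none, while 1 was higher with an unadjusted p in edgeR. Leaving out ctrl replicate 1 moved this median to −0.048 and leaving out ctrl replicate 2 to 0.46, so that its direction changed with the ctrl library. The part of dividing cells in the counts of Anln was not tested.

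Of the 5 septins listed, Sept2, Sept4, Sept7 and Sept8 had the Zfp276cko pair below the ctrl pair, and Sept9 had it above. Sept4 had 3130 and 1782 normalized counts in ctrl and 1194 and 1138 in Zfp276cko, a log2 fold change of −1.07 (standard error 0.29), and was the one septin that DESeq2 called (adjusted p = 0.0167). Quasi-likelihood adjusted p-values of the septins lay between 0.231 and 0.483. Of the ERM proteins, which link membranes to actin, and the related merlin (Nf2), Ezr and Msn lay above both ctrl libraries and Rdx and Nf2 below. Their log2 fold changes ranged from −0.40 for Nf2 to 0.51 for Msn. Msn had a DESeq2 adjusted p of 0.0259 but missed the threshold on fold change, and none was called.

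The regions upstream of Ermn and Apod are shown because Ermn was the late gene called by DESeq2, while the Zfp276cko libraries of Apod lay between the ctrl libraries. Sequences are the 250 bases before the annotated start from RefSeq (GRCm38.p6), 5′ to 3′ on the strand of the gene. Capitals mark matches to ACAAAG or ACAATG, letters of the kind bound by Sox proteins, searched on both strands. The region of Ermn lies at chr2:58052865-58053114 on the minus strand and that of Apod at chr16:31314809-31315058 on the minus strand.
Ermn: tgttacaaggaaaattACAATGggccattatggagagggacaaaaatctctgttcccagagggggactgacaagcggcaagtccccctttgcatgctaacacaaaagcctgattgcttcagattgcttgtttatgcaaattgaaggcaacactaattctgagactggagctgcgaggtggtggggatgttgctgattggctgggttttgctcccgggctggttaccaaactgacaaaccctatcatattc
Apod: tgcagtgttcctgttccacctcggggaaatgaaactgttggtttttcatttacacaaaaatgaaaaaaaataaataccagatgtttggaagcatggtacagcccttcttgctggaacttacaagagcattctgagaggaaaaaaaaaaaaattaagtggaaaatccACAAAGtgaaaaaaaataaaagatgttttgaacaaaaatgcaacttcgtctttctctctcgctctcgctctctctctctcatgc
Ermn has 1 match to ACAATG that begins 234 bases before the start, and Apod 1 match to ACAAAG that begins 84 bases before it. RefSeq windows were at hand for 8 of the 9 genes, with several annotated starts for Klk6 and Gjb1, and Car2 had none. Of 12 windows, 6 held at least 1 match, from 5 genes (Hapln2, Apod, Klk6, Gjb1 and Ermn). Over all 32851 windows of this length 25.2% held one, 16.5% for ACAAAG and 10.7% for ACAATG. A match describes letters and not a bound site.

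Gjb1 encodes connexin 32, which forms gap junctions between the layers of myelin and with astrocytes. It is located on chromosome X from 101376378 to 101385629. Gjb1 had 310 and 330 normalized counts in ctrl and 289 and 278 in Zfp276cko libraries. The Zfp276cko libraries were lower without overlap, but only slightly so, with 88.5% of the ctrl mean. Its log2 fold change was −0.18 (SE 0.15; quasi-likelihood adjusted p = 0.631). Of the other connexins, Gjc3 (connexin 29) was the most abundant with 20569 and 18830 normalized counts in ctrl and 20645 and 23042 in Zfp276cko. Gja1, the connexin of astrocytes, had 228 and 532 in ctrl and 509 and 470 in Zfp276cko. Gjb2 and Gjb6 had at most 1 count in any library.

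Hapln2 encodes a link protein that stabilizes hyaluronan-bound proteoglycans at nodes of Ranvier. The gene spans 88021750 to 88027583 on chromosome 3. Counts were low, with 126 and 129 normalized counts in the ctrl pair against 85.1 and 97.1 in the Zfp276cko pair. The ctrl replicates were nearly equal for this gene, and both Zfp276cko libraries lay below them. The Zfp276cko mean was 71.4% of ctrl, with a log2 fold change of −0.49 (SE 0.22; quasi-likelihood adjusted p = 0.393). Of the 9 genes, Hapln2 depended least on the choice of the ctrl library, with −0.50 without ctrl replicate 1 and −0.48 without ctrl replicate 2. Among 7 related matrix genes, the lecticans Vcan and Bcan and the tenascin Tnr had the Zfp276cko pair below the ctrl pair, and Hapln3, Hapln4 and Ncan had it above. Hapln4, another link protein, had 116 and 82.1 normalized counts in ctrl and 244 and 243 in Zfp276cko. Its log2 fold change was 1.30 (SE 0.25), and it was the one gene of these 7 that DESeq2 called (adjusted p = 0.00597). Tnr reached −0.51 on the log2 scale (DESeq2 adjusted p = 0.00822) and missed the threshold on fold change.

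Ninj2 encodes ninjurin 2, an adhesion protein of the cell surface. It is found on chromosome 6 from 120093350 to 120200339. The ctrl pair had 167 and 129 normalized counts and the Zfp276cko pair 119 and 84.2. The genotypes did not overlap, but ctrl replicate 2 and Zfp276cko replicate 1 were close to each other. On the log2 scale, Ninj2 was the late gene whose Zfp276cko replicates lay farthest apart (0.50). The log2 fold change was −0.54 (SE 0.30; quasi-likelihood adjusted p = 0.458). It moved to −0.35 when ctrl replicate 1 was left out, to −0.31 when Zfp276cko replicate 2 was, and to −0.81 when Zfp276cko replicate 1 was. The related Ninj1 lay above both ctrl libraries, with 1356 and 891 normalized counts in ctrl and 1553 and 1382 in Zfp276cko (log2 fold change 0.39, adjusted p = 0.491).

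Klk6 encodes kallikrein 6, a secreted serine protease that in the CNS is made largely by mature OLs. It is located on chromosome 7 from 43824499 to 43832030. Klk6 had 163 normalized counts in ctrl replicate 1, 41.6 in ctrl replicate 2, and 49.8 and 48.1 in the Zfp276cko replicates. Ctrl replicate 1 was thus high and the other 3 libraries were alike. The log2 fold change of −1.06 had a standard error of 0.70 and an adjusted p of 0.528 from the quasi-likelihood test. It was 0.23 without ctrl replicate 1, so that its direction rested on this library, in which Col1a2 was also high. Whether these go together was not tested. Of 7 other kallikreins and protease receptors, Klk8 and F2r passed the filter. F2r, a thrombin receptor, had 533 and 528 normalized counts in ctrl and 629 and 627 in Zfp276cko (log2 fold change 0.24, adjusted p = 0.407). Klk7, Klk9, Klk10, Klk11 and F2rl1 did not have enough counts for a test.

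Aspa was the single late gene whose Zfp276cko pair was above the ctrl pair. It encodes aspartoacylase, which splits N-acetylaspartate from neurons and so provides acetate for lipid synthesis in OLs. The gene extends from 73304992 to 73329596 on chromosome 11. It had 58.2 and 88.9 normalized counts in ctrl and 96.8 and 109 in Zfp276cko libraries. Ctrl replicate 1 was low, and ctrl replicate 2 came close to the Zfp276cko libraries. The mean in Zfp276cko was 140% of ctrl, a log2 fold change of 0.48 (SE 0.31; quasi-likelihood adjusted p = 0.519). It came to 0.21 when ctrl replicate 1 was left out and to 0.81 when ctrl replicate 2 was. Among 7 genes of N-acetylaspartate metabolism, Nat8l, the synthase, lay below and Rimklb above both ctrl libraries. Slc13a3, a carrier that takes up N-acetylaspartate, was the most abundant, with 10337 and 18910 normalized counts in ctrl and 17477 and 17680 in Zfp276cko. None of the 7 was called by DESeq2.

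Car2 encodes carbonic anhydrase 2, the cytosolic enzyme that is a classical OL marker. It is located on chromosome 3 from 14886273 to 14900770. Its values were 1986 and 1201 normalized counts in ctrl and 1156 and 1111 in Zfp276cko libraries. Ctrl replicate 1 was high, and ctrl replicate 2 lay just above the Zfp276cko libraries. The log2 fold change of −0.49 (SE 0.26; quasi-likelihood adjusted p = 0.452) came to −0.083 without ctrl replicate 1 and to −0.82 without ctrl replicate 2. Of 9 other carbonic anhydrases, 8 were tested, with 2 below both ctrl libraries (Car8 and Car14) and 5 above. DESeq2 called 1 lower and 1 higher. Car8, which lacks catalytic activity, had 626 and 682 normalized counts in ctrl and 416 and 406 in Zfp276cko (log2 fold change −0.67, DESeq2 adjusted p = 0.0142). The cytosolic Car13 had 299 and 269 in ctrl and 584 and 570.5 in Zfp276cko (log2 fold change 1.02, DESeq2 adjusted p = 2.50e-04). Quasi-likelihood adjusted p-values were 0.162 for Car8 and 0.123 for Car13.

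Apod encodes apolipoprotein D, a lipocalin that carries small lipids and is made by mature OLs as well as by fibroblasts. It is found on chromosome 16 from 31296192 to 31314808. Apod had 1391.5 and 920 normalized counts in ctrl and 1314 and 1316 in Zfp276cko libraries. The Zfp276cko libraries were close to each other and lay between the ctrl libraries. The log2 fold change was 0.19 (SE 0.22; quasi-likelihood adjusted p = 0.733), and leaving out ctrl replicate 1 gave 0.52, leaving out ctrl replicate 2 gave −0.095. Of 5 related lipid carriers, lipocalins and binding partners, Lcn2 (log2 fold change 1.27), Apoe (0.98) and Clu (0.67) had the Zfp276cko pair above the ctrl pair, and DESeq2 called all 3 (adjusted p-values of 5.94e-04, 6.17e-04 and 0.00941). In the brain these 3 are expressed by astrocytes or microglia as well. Ptgds (0.12) and Bsg (0.033) were not called.

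**Figure D2:**
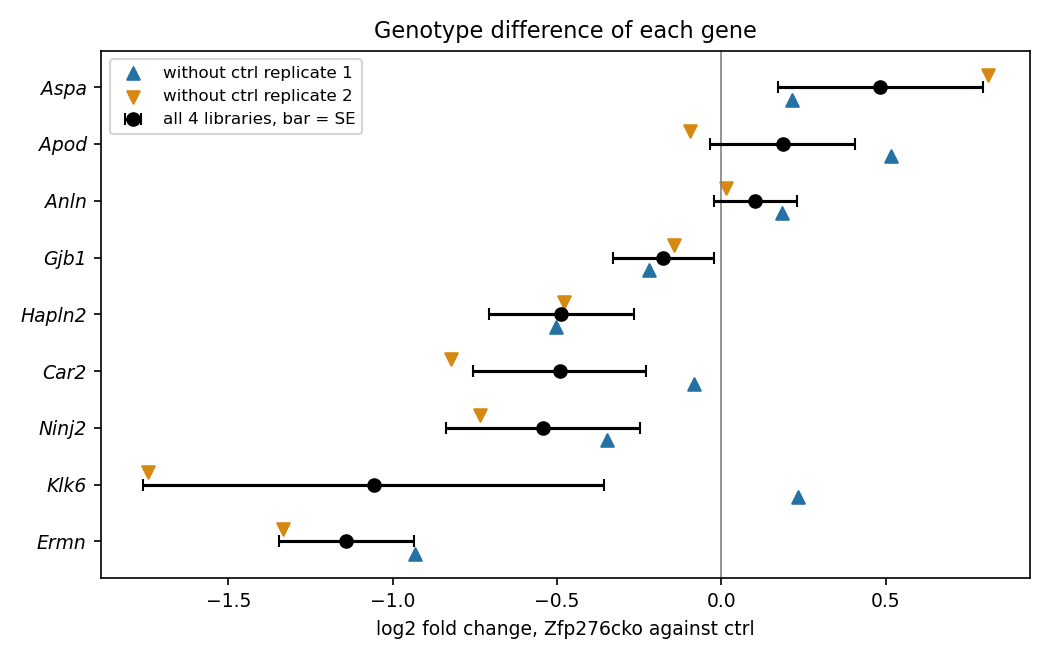
Log2 fold change (x axis, Zfp276cko against ctrl) of the 9 late genes, with all 4 libraries (black points, bars are standard errors) and without ctrl replicate 1 (blue) or ctrl replicate 2 (orange). Ermn stays between −1.33 and −0.93, whereas Klk6 and Apod change side with the ctrl library used.

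The direction of the late genes thus depended on the ctrl library to different degrees. The median absolute difference between the ctrl replicates was 0.39 on the log2 scale for the 9 genes, and 0.14 between the Zfp276cko replicates. Ctrl replicate 1 was the higher of the ctrl pair for 6 of the 9 genes, with the largest gap for Klk6 (1.95 on the log2 scale), followed by Car2 (0.73) and Apod (0.60). Aspa showed the reverse (−0.61). Without ctrl replicate 1, the Zfp276cko libraries lay below the remaining ctrl library for 5 genes (Hapln2, Ninj2, Gjb1, Car2 and Ermn) and above it for 4 (Aspa, Apod, Klk6 and Anln), compared with 42.6% and 44.4% of tested genes. Without ctrl replicate 2 they lay below for 7 and above for 1, compared with 41.7% and 46.5% of tested genes.

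**Figure D3:**
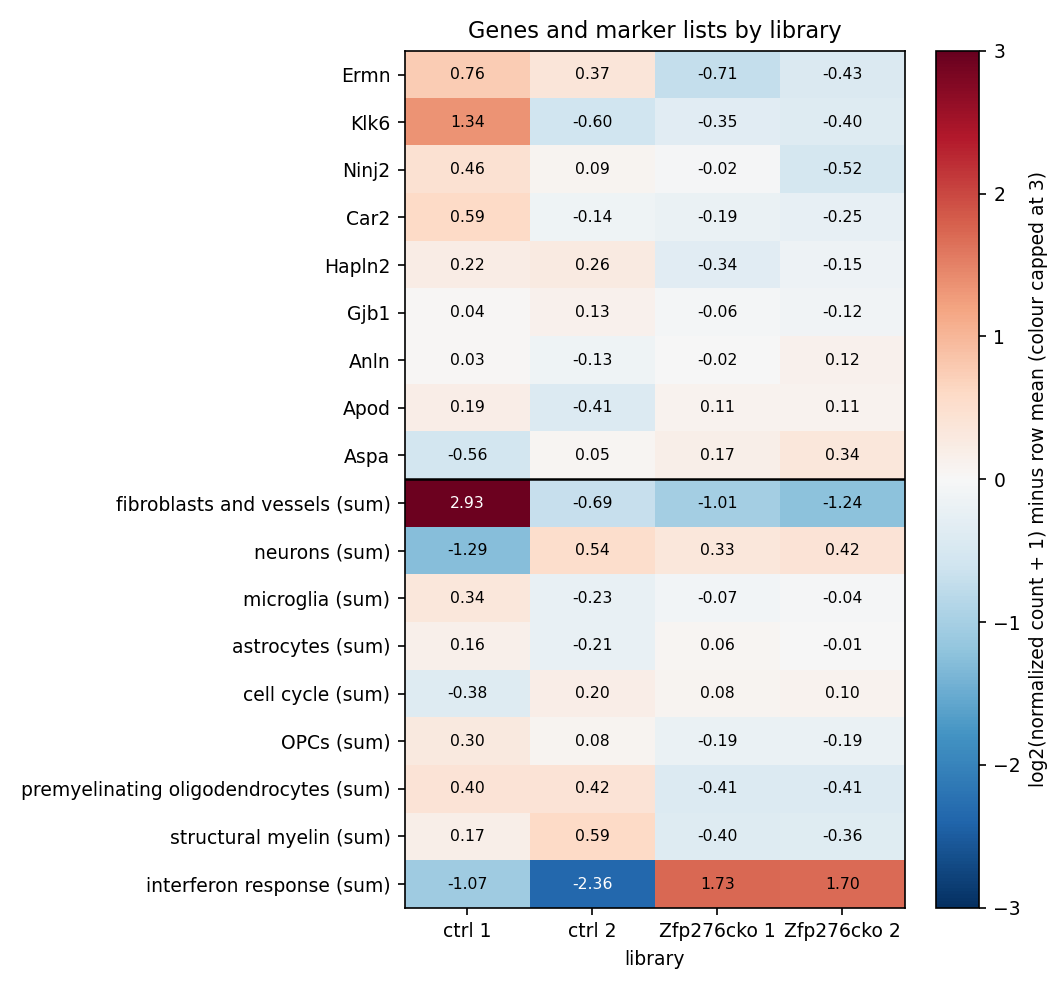
Each row is 1 late gene or the summed normalized counts of a marker list, each column a library; colours and numbers give log2(normalized count + 1) minus the mean of the row. Ctrl replicate 1 is highest for Klk6 (1.34) and for the markers of fibroblasts and vessels (2.93), and the interferon response separates the genotypes.

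Levels of different genes were compared as CPM (scaled with the same TMM factors) per kb of merged exon length. In ctrl cells Car2 (27.8 ± 9.70, SD, n = 2) and Apod (19.0 ± 5.47) were the highest, and their libraries overlapped. Ermn (8.49 ± 1.60) and Gjb1 (7.93 ± 0.35) followed and did not differ beyond their spread. Ninj2 (6.70 ± 1.21) came next, and its libraries overlapped with those of Ermn but not with those of Gjb1. Anln (3.37 ± 0.26), Klk6 (2.86 ± 2.39) and Hapln2 (2.28 ± 0.045) overlapped with their neighbours in this order, and Aspa (0.52 ± 0.15) was the lowest. In Zfp276cko cells the order began with Apod (21.6 ± 0.027, SD, n = 2) and Car2 (19.8 ± 0.55), and Ermn (3.85 ± 0.53) stood behind Gjb1 (7.02 ± 0.20) and Ninj2 (4.60 ± 1.13). There the libraries of Ermn overlapped with those of Ninj2 and with those of Anln (3.62 ± 0.25). Those of Ninj2 lay just above those of Anln. All 9 genes were far below the structural myelin gene Mbp on this scale, which had 739 ± 212 CPM per kb in ctrl cells and 442 ± 9.94 in Zfp276cko cells (SD, n = 2).

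The late genes were set beside other stages of the lineage. Structural myelin genes (10 tested) showed a median log2 fold change of −0.82, with the Zfp276cko pair below the ctrl pair for 8 genes and above it for 1, and DESeq2 called 6 lower, Mbp and Mog among them. In the list of premyelinating OLs, 17 of 18 genes were tested with a median of −0.76, 13 below and 1 above, and DESeq2 called 7 lower and 1 higher. The 40 other genes of mature OLs had a median of −0.21, with 15 below and 6 above, of which DESeq2 called 4 lower (Gpr37, Fa2h, Ugt8a and Tmem88b) and 1 higher (Galnt6). For the 16 OPC genes the median was −0.34 (9 below, 1 above, 3 called lower), and for the 4 pan-oligodendroglial genes −0.35 (2 below, 0 above, with Olig1 and Olig2 called lower). Without ctrl replicate 2 the medians were −0.52 for structural myelin genes and −0.40 for premyelinating OLs, beside −0.48 for the late genes. Without ctrl replicate 1 they were −0.92 and −0.73, beside −0.083 for the late genes and −0.083 for the other mature genes. The order of the lists thus changed with the ctrl library, and the difference between them was not tested.

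**Figure D4:**
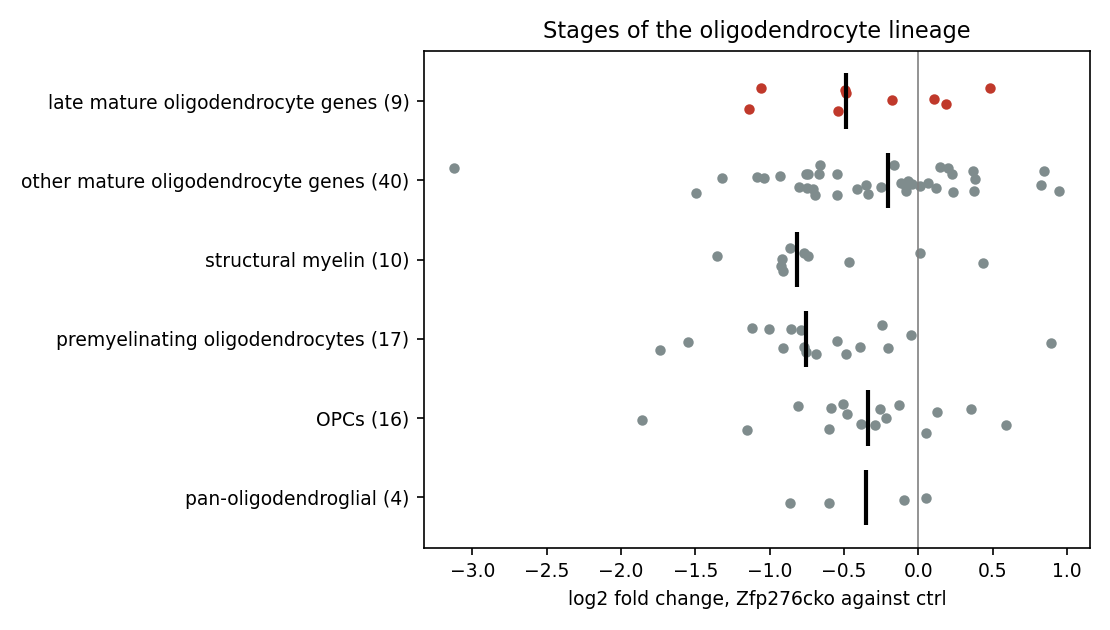
Log2 fold change (x axis, Zfp276cko against ctrl) of each tested gene in the lists of lineage stages, with the number of tested genes in brackets and the median as a black bar; points are spread vertically for visibility. The 9 late genes (red) range from −1.14 to 0.48.

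Of the other genes of mature OLs, which ranged from −3.12 to 0.95 on the log2 scale, 4 that were picked after their values were seen are given. Tmem88b, a transmembrane protein of OLs, had 3334 and 4445 normalized counts in ctrl and 1289 and 1473 in Zfp276cko, a log2 fold change of −1.49 (standard error 0.18) with adjusted p-values of 0.117 from the quasi-likelihood test and 4.42e-09 from DESeq2. Opalin, a membrane glycoprotein of mature OLs, had 1504 normalized counts in ctrl replicate 1, 215 in ctrl replicate 2, and 98.6 and 98.8 in Zfp276cko. It was highest in ctrl replicate 1, as were the late genes Ermn, Klk6, Ninj2, Car2 and Apod. Its log2 fold change of −3.12 had a standard error of 0.997 and an adjusted p of 0.278. The markers Trf (199 and 56.3 in ctrl, 67.0 and 53.3 in Zfp276cko) and Cryab (3181 and 749 in ctrl, 1129 and 1126 in Zfp276cko) had their highest values in ctrl replicate 1 as well, while Tmem88b did not.

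Averaged over the 9 genes, the centred log2 level was 0.34 in ctrl replicate 1, −0.041 in ctrl replicate 2, and −0.16 and −0.14 in Zfp276cko. The genes nearest to this mean pattern over the 4 libraries were Gpd1l, Eef1g, Tex2, Nudt16 and Ankrd40, at distances between 0.028 and 0.040 on the log2 scale. Such closeness is common with 4 libraries, since 6220 of the tested genes with a mean of at least 20 lay within 0.5 of the pattern.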

How the data were processed

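RNA was taken from 2 ctrl and 2 Zfp276cko preparations of 1° mouse OGCs at 3ddiff and sequenced as stranded single-end libraries of 101 bp. Per the labels, STAR 2.5.4a aligned the reads to mm10, and the authors deposited raw counts per gene. HTSeq is named for counting in the study's methods and featureCounts 1.5.1 in the submitters' processing notes, the strand setting is not given in the sources used here, and the Ensembl release was not checked. Where a file lists a symbol more than once, entries were kept apart. Gene positions and merged exon lengths came from GENCODE M21 (GRCm38, the build of mm10).

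Genes were kept with filterByExpr (15766 genes, 99.9% of counts), normalized with TMM and tested with edgeR 4.0.16 (glmQLFit, glmQLFTest) in R 4.3.3 with genotype as the single term and Benjamini-Hochberg adjustment over all tested genes. DESeq2 1.42.0 and limma 3.58.1 were alternatives. The standard error is the log2 fold change divided by the square root of the F statistic. The fits were also run on simulated counts, but no outcome is given here and no result rests on it. Depth is given with the libraries, and 2 libraries per genotype limit the precision.

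The 9 genes and all lists were chosen with earlier results of these data known. Named genes are the 9 genes, Zfp276, Sox10, members of the lists, the most abundant gene of each marker list and the 5 nearest patterns (Euclidean distance of centred log2 CPM with a prior count of 2). Outside this rule, Fanca and Galnt5 are named for their exon overlap with Zfp276 and Ermn. From the list of mature genes, Opalin, Tmem88b, Trf and Cryab were picked after their values were seen. Some members of the lists are not reported here by name. Of 2 entries for Itgam, the one with more counts was used.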

Additional observations from a re-analysis of the deposited data

How the results depend on the processing

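The number of genes called was the result most open to the method. Against 0 lower and 0 higher genes with the quasi-likelihood test, an unadjusted p gave 476 and 806, DESeq2 338 and 447, and limma voom with quality weights per genotype 72 and 133. No filter on low counts gave 0 lower and 8 higher. Of the 9 late genes, an unadjusted p and DESeq2 each called 1 lower, which was Ermn, and limma voom called none. DESeq2 size factors, at least 10 counts in every library, library sizes set by the counts of Sox10, and an adjusted p alone called no gene.

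With each library left out in turn, calls over all genes lay between 0 and 1286 lower and 0 and 1792 higher (952 and 1689 without ctrl replicate 1, 1286 and 1792 without ctrl replicate 2), and calls among the late genes between 0 and 4 lower (Ninj2, Klk6, Car2 and Ermn without ctrl replicate 2) and 0 and 1 higher (Aspa without ctrl replicate 2). The higher values arose without a ctrl library, where the lone ctrl library is assumed to vary as little as the Zfp276cko pair. These runs tested 16519 genes without ctrl replicate 1 and 16553 without ctrl replicate 2. Calls over all genes rose in both runs, and whether the late genes were called more often than other genes was not tested. The median of the late genes lay between −0.48 and −0.083, the latter without ctrl replicate 1. The late genes above every ctrl library numbered between 1 and 4, and those below between 5 and 7, a count added after the data were seen. With 1 ctrl library left, 41.7% to 42.6% of all tested genes lay below it and 44.4% to 46.5% above. Log2 fold changes of Klk6 lay between −1.74 and 0.23 (the latter without ctrl replicate 1) and those of Apod between −0.095 (without ctrl replicate 2) and 0.52, and no other late gene changed direction under any alternative run.

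Same-numbered replicates did not deviate together (correlation of the replicate differences 0.0067 over 14324 genes), so that the samples share only a number. With the replicate block, 0 genes were called in either direction and the median of the late genes was −0.45. Low counts limit Aspa, Klk6, Hapln2 and Ninj2, of which no library held more than 141 reads.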
